A study of Mus musculus with 2 samples.

Results

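This report describes 10 of the 32285 genes measured in single cells of the mouse mammary gland: the cytotoxic granule genes Gzma, Gzmb, Prf1 and Nkg7, the natural killer (NK) receptor genes Ncr1, Klrb1c, Klrd1, Klre1 and Klrk1, and the transcription factor gene Eomes. They were named for their known roles in killer lymphocytes, with earlier results of these data known. The levels were read in NK cells, CD8 T cells, CD4 T cells and all other cells of 2 droplet libraries, 1 for each group. The group Ctrl held mammary glands of control mice, and the group CL held glands after repeated intraperitoneal injection of clodronate liposomes, lipid vesicles that carry a drug into the macrophages that engulf them and kill these cells. The animals of both groups were adult wild-type females, 9 to 10 weeks old in the sample labels and 8 to 10 weeks old in the protocol, and no other allele or agent is named. The study names C57/B6 mice for other experiments, while the strain and the number of animals behind these 2 libraries were not given in the sources used here. The sample labels name CD45+ immune cells together with CD31-TER119- cells in a proportion that was not given, while the study's supplement names CD31-TER119- live cells alone, so how immune cells were collected is uncertain and the sort can set the share of immune cells in each library. With 1 library per group there is no replicate check, no test of the conditions was possible, and every interval below covers counting error only.

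NK cells and CD8 T cells kill a target by releasing granules onto it. Perforin opens the target membrane, granzymes enter and start cell death, and a balance of activating and inhibitory receptors decides whether the granules are released. NK receptors of the C-type lectin family are encoded side by side in the NK gene complex, several of them are also carried by activated CD8 T cells, and Eomes and its relative T-bet direct the killer programme in both lineages.

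The positions of the members were read from the GENCODE annotation of GRCm38. Klre1, Klrd1 and Klrk1 lay next to one another at chr6:129577905-129623864, a stretch of 45960 bases, and Klrb1c lay on the same chromosome at chr6:128778485-128789215. Ncr1 (chr7:4337724-4345164) and Nkg7 (chr7:43437073-43438249) shared a chromosome. The others were Gzma (chr13:113093825-113100981), Gzmb (chr14:56258838-56262260), Prf1 (chr10:61297833-61304680) and Eomes (chr9:118478212-118486132). In the files the genes carry the Ensembl identifiers ENSMUSG00000023132 (Gzma), ENSMUSG00000015437 (Gzmb), ENSMUSG00000037202 (Prf1), ENSMUSG00000004612 (Nkg7), ENSMUSG00000062524 (Ncr1), ENSMUSG00000030325 (Klrb1c), ENSMUSG00000030165 (Klrd1), ENSMUSG00000050241 (Klre1), ENSMUSG00000030149 (Klrk1) and ENSMUSG00000032446 (Eomes). The droplet chemistry counts 3′ ends of transcripts, so a value belongs to the gene and not to an exon.

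Because Eomes is a T-box factor, the promoter windows of the members, RefSeq sequences of 300 bases around the start site in GRCm38.p6, were searched for the T-box letters AGGTGT and their reverse complement ACACCT. A window was held for 9 of the 10 members, Klrd1 being the other one. The letters were in 3 of these 9 genes, Gzma, Prf1 and Nkg7, all granule genes, against 13.9% of 27025 genes by the first window of each. Counted by window, they were in 3 of 11 windows of the members, against 13.7% of all 32851 windows. They were in none of the windows of Gzmb, the other granule gene, nor of Ncr1, Klrb1c, Klre1, Klrk1 or Eomes. A match is a run of letters and not a binding site, and no binding was measured here. The 3 windows are shown on the gene's own strand with the matched letters in capitals, which start at base 171 in Gzma (chr13:113100932-113101231, minus strand), base 227 in Prf1 (chr10:61297586-61297885, plus strand) and base 237 in Nkg7 (chr7:43436888-43437187, plus strand).
Gzma: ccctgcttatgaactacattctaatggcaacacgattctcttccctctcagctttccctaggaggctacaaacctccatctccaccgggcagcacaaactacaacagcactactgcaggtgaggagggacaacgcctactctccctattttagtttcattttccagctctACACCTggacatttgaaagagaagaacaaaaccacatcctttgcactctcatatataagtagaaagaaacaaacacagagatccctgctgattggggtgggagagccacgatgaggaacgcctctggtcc
Prf1: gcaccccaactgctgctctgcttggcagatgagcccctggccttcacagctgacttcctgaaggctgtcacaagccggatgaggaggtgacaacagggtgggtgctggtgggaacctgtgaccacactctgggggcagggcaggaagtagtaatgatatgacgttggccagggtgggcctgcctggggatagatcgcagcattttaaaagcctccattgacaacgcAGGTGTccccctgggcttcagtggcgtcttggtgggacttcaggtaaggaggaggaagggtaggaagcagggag
Nkg7: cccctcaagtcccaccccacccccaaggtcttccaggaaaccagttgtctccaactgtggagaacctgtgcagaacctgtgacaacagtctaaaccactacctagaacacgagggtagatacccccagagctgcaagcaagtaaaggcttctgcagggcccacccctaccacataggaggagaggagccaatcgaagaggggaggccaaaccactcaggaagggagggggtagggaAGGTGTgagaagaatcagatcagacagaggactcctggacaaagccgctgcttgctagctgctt

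After filtering, 6297 cells of the Ctrl library and 9335 cells of the CL library were kept, with medians of 11910 and 10853 unique molecular identifiers (UMIs, counted molecules). The 2 libraries shared 22 cell barcodes. Immune cells made up 4.21% of kept cells in Ctrl (265 cells) and 10.1% in CL (943 cells). The treatment is named as one that removes macrophages. Cells with myeloid markers made up 0.858% of kept cells in Ctrl and 2.35% in CL, and 20.4% (15.7 to 25.7) and 23.2% (20.6 to 26.1) of immune cells. Cells of this class with a UMI of C1qa, a complement gene of macrophages, were 37 of 54 in Ctrl and 66 of 219 in CL. They made up 14.0% (10.0 to 18.7) and 6.999% (5.45 to 8.82) of immune cells, which is lower in CL, and 0.588% (0.414 to 0.809) and 0.707% (0.547 to 0.899) of kept cells, where the intervals overlap. This was looked at after the values were seen.

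Cells were classed by a few genes. NK cells were immune cells with an Ncr1 UMI and none of Cd3d, Cd3e or Cd3g. This gate found 17 cells in Ctrl and 38 in CL, that is 0.270% and 0.407% of kept cells, or 6.42% (exact binomial 95% interval 3.78 to 10.1) and 4.03% (2.87 to 5.49) of immune cells. Ncr1 was counted so sparsely that 14 of the 17 and 32 of the 38 cells held a single Ncr1 UMI. A second gate that does not use Ncr1 or any other member took immune cells with no Cd3 UMI, fewer than 3 UMIs of the myeloid markers and at least 2 UMIs of 12 further NK genes (Klra4, Klra7, Klra8, Klra9, Il2rb, Txk, Xcl1, Il18rap, Itga2, S1pr5, Sh2d1b1 and Cma1). These NK-marker cells numbered 98 in Ctrl and 213 in CL, 37.0% (31.2 to 43.1) and 22.6% (19.95 to 25.4) of immune cells. Over kept cells the direction was the opposite, with 1.56% (1.27 to 1.89) and 2.28% (1.99 to 2.61), a log2 ratio of CL over Ctrl of 0.55 (0.21 to 0.91). They included 17 of the 17 Ncr1-gated cells of Ctrl and 37 of the 38 of CL, while 17.3% and 17.4% of NK-marker cells passed the Ncr1 gate. The Ncr1 gate thus took a small part of the NK-marker cells. The use of both gates throughout was chosen after the small size of the first was seen.

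The label NK was checked against those 12 genes, all of which were detected in NK cells of both libraries. Their summed level was 6213 UMIs per 1000000 UMIs of the class (CPM) in Ctrl and 5186 CPM in CL, against 1969 and 1152 CPM in CD8 T cells. Of the 5 T cell markers, the Cd3 genes were at 0 by the gate and the other 2 came to 509 and 234 CPM in NK cells, against 4416 and 3980 CPM for the list in CD8 T cells. The 13 myeloid markers were at 0 in the NK cells of Ctrl and reached 3907 CPM in those of CL. In CL, 815 of these myeloid UMIs, with 468 of S100a8, came from 1 cell that also held 78 UMIs of the members, and this was the cell outside the NK-marker gate. The NK-marker cells held 10.8 CPM of the myeloid list in Ctrl and 28.2 CPM in CL. In NK-marker cells the 8 stromal markers came to 604 CPM (Ctrl) and 87.5 CPM (CL), and the part of this in the values below was not tested.

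**Figure D1:**
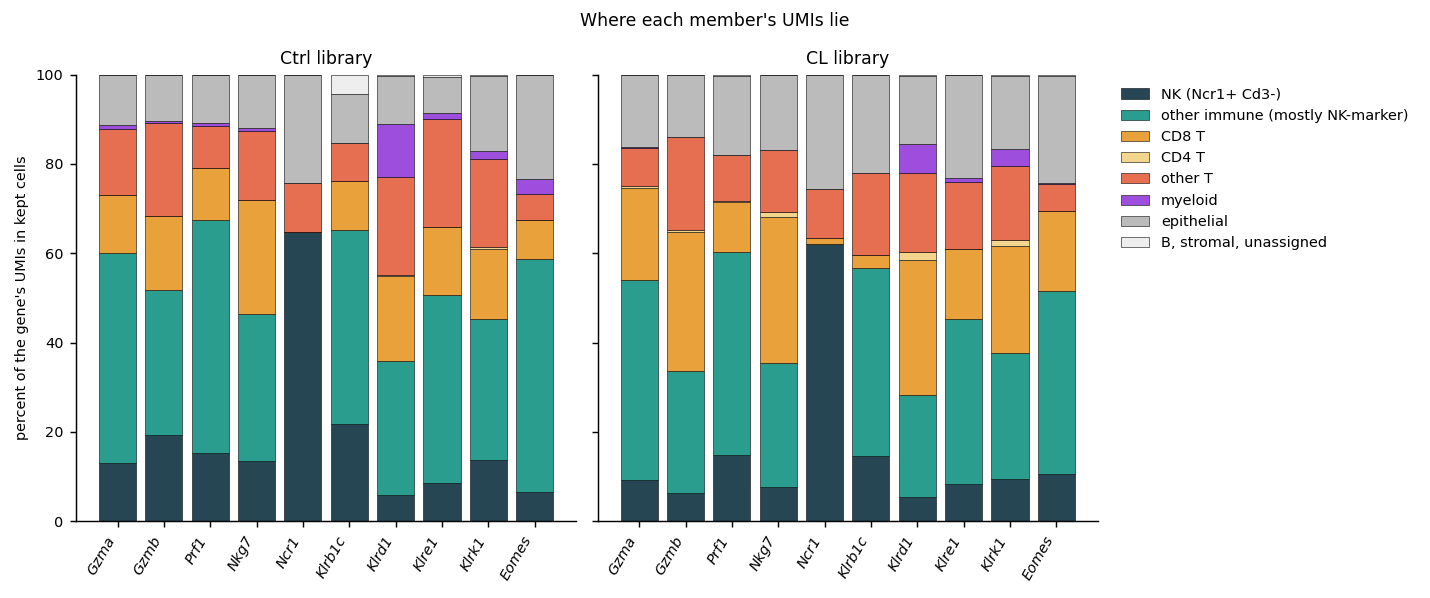
Share of each member's UMIs that lay in each cell class (vertical axis, percent of the gene's UMIs in kept cells) for the Ctrl and CL libraries. The cells coloured as NK and other immune are nearly all NK-marker cells. NK-marker cells hold 59.98% of Gzma UMIs in Ctrl and 53.6% in CL, against 35.9% and 25.5% of Klrd1 UMIs.

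Gzma encodes granzyme A, a protease that kills the target once inside it. It stood at 7771 CPM in the NK cells of Ctrl and 5526 CPM in those of CL (exact Poisson intervals 7230 to 8343 and 5212 to 5853). In NK-marker cells it was 7618 and 6270 CPM. The log2 ratio of CL over Ctrl was -0.49 (-0.63 to -0.36) in NK cells and -0.28 (-0.34 to -0.22) in NK-marker cells. The sum in NK cells rested on few cells. In the NK cells of Ctrl, 1 cell held 292 of the 763 Gzma UMIs, and without the highest cell of each library the log2 ratio was 0.00 (-0.16 to 0.16), while in NK-marker cells it was -0.25 (-0.31 to -0.18). The median NK-marker cell held 4453 CPM of Gzma in Ctrl and 4463 CPM in CL. The median cell thus differed less than the sum. The spread between cells was as large as the level, with a mean of 6973 ± 7615 CPM in Ctrl (SD, n = 98 cells) and 6364 ± 6643 CPM in CL (SD, n = 213 cells).

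Gzmb, which encodes granzyme B, was the granule member furthest apart between the libraries in NK and NK-marker cells. It stood at 3809 CPM in the NK cells of Ctrl and 1022 CPM in those of CL, a log2 ratio of -1.90 (-2.15 to -1.65). In NK-marker cells the levels were 2151 and 1061 CPM, a log2 ratio of -1.02 (-1.14 to -0.90). In alternatives chosen after seeing the data, it was -0.96 (-1.09 to -0.83) without the highest cell of each library. As the ratio of the means over cells of each cell's own CPM it was -0.81. The median NK-marker cell held 969 CPM in Ctrl and 589 CPM in CL, and the quartile ranges of the cells overlapped (197 to 2065 and 0 to 1499 CPM). The share of cells with a Gzmb UMI was close in the libraries. After every cell was thinned to 2820 UMIs, 63.6% of 77 NK-marker cells in Ctrl and 66.3% of 184 in CL had a Gzmb UMI, with exact intervals of 51.9 to 74.3 and 59.0 to 73.1. The thinning left out 21 and 29 shallower cells, and unthinned the shares were 76.5% and 71.8%. Among epithelial cells, which should lack the gene, the thinned shares were 0.347% and 0.557%.

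Prf1 encodes perforin, and Nkg7 a granule membrane protein needed for release. Prf1 was at 214 CPM in the NK cells of Ctrl and 272 CPM in those of CL, and at 200 and 210 CPM in NK-marker cells. The log2 ratio in NK-marker cells was 0.07 (-0.29 to 0.43). Nkg7 was at 1996 and 1757 CPM in NK cells and at 1455 and 1590 CPM in NK-marker cells, where the log2 ratio was 0.13 with an interval that included 0. For both genes the interval included 0, unlike that of Gzmb. Summed over the 4 granule genes, NK cells held 13791 CPM in Ctrl and 8577 CPM in CL, a log2 ratio of -0.69 (-0.79 to -0.58), and most of these UMIs were of Gzma and Gzmb.

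**Figure D2:**
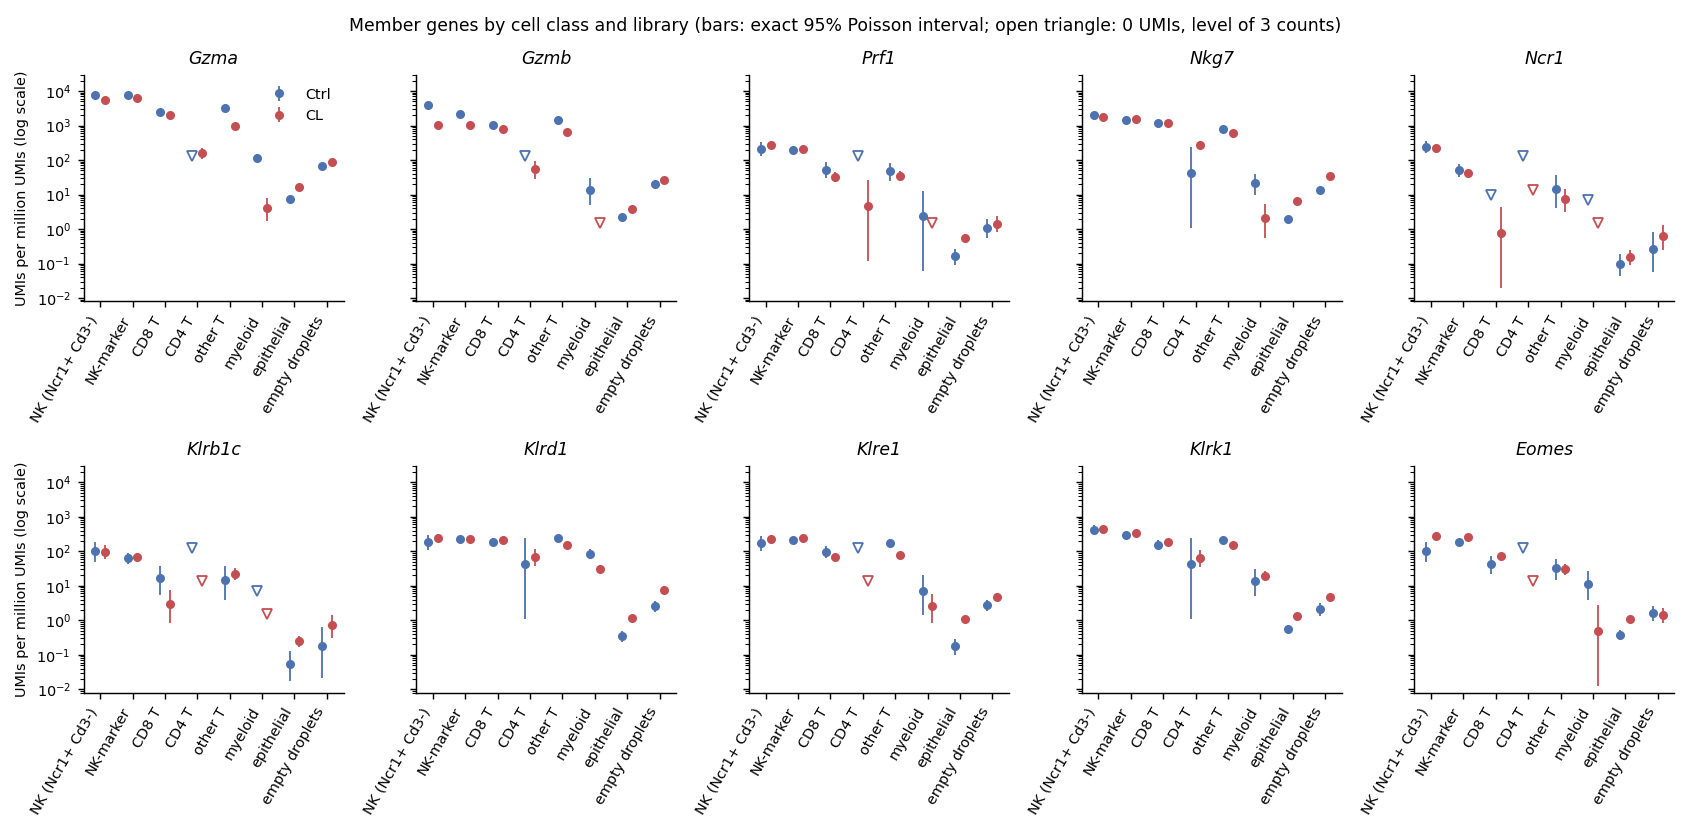
Level of each member in UMIs per 1000000 UMIs (log axis) in 7 cell classes and in empty droplets, for the Ctrl and CL libraries; points are summed UMIs of the class, bars exact 95% Poisson intervals, and open triangles the level of 3 counts where a class held 0 UMIs. Klrd1 stands at like levels in NK, NK-marker and CD8 T cells, while Prf1 is at 214 and 272 CPM in NK cells against 52.3 and 32.8 CPM in CD8 T cells.

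The receptor genes were closer between the libraries than Gzmb. Klrk1, which encodes the activating receptor NKG2D, was at 428 and 449 CPM in the NK cells of Ctrl and CL and at 297 and 345 CPM in NK-marker cells, where the log2 ratio was 0.22 (-0.07 to 0.51). Klrd1, which encodes CD94, the partner chain of the NKG2 receptors, was at 183 and 244 CPM in NK cells and at 233 and 227 CPM in NK-marker cells. Klre1, whose product pairs with other lectin-like receptors, was at 173 and 224 CPM in NK cells and at 218 and 239 CPM in NK-marker cells. Klrb1c, which encodes the NK1.1 receptor, had few counts, with 10 UMIs in the NK cells of Ctrl and 20 in those of CL, and levels of 64.7 and 69.6 CPM in NK-marker cells. Summed over these 4 genes, the level was 886 CPM in the NK cells of Ctrl and 1012 CPM in those of CL, a log2 ratio of 0.19 (-0.17 to 0.57), and the ratio in NK-marker cells was 0.12 (-0.06 to 0.29). Both intervals include 0. Ncr1, which encodes the activating receptor NKp46, set the NK gate and has no comparison there. In NK-marker cells it was at 51.7 CPM in Ctrl and 41.4 CPM in CL (log2 ratio -0.32, -1.07 to 0.46).

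Eomes was the only member higher in CL with an interval that excluded 0 in NK and NK-marker cells. It was at 102 CPM in the NK cells of Ctrl, from 10 UMIs in 6 of 17 cells, and at 277 CPM in those of CL, from 58 UMIs in 23 of 38 cells. The log2 ratio was 1.44 (0.46 to 2.58), and 0.75 as the ratio of the means over cells of each cell's own CPM. In NK-marker cells the levels were 190 and 268 CPM, a log2 ratio of 0.50 (0.15 to 0.86), or 0.26 by the means over cells. Thinned to 2820 UMIs, 29.9% of NK-marker cells in Ctrl (19.97 to 41.4) and 45.7% in CL (38.3 to 53.1) had an Eomes UMI, and the shares were 37.8% and 54.5% unthinned. The log2 ratio of the thinned shares was 0.61 (0.08 to 1.23), and in epithelial cells the thinned shares were 0.0547% and 0.272%.

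Among genes with enough counts, 2 of the 9 members measured in NK cells were at least 2-fold apart between the libraries, Eomes higher and Gzmb lower in CL, where 14.5% of all 1402 genes were. Ncr1, which set the gate, is among the 9, and Eomes reached the minimum of UMIs in CL only. Among NK-marker cells it was 1 of 10, Gzmb lower, where 2.55% of all 3181 genes were past 2-fold in either direction and 1.92% were lower. That Gzmb ratio, -1.02, was under 2-fold without the highest cell of each library (-0.96) and by the means over cells (-0.81). The median log2 ratio over the members was 0.09 in NK-marker cells, beside -0.01 over all genes measured there.

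**Figure D3:**
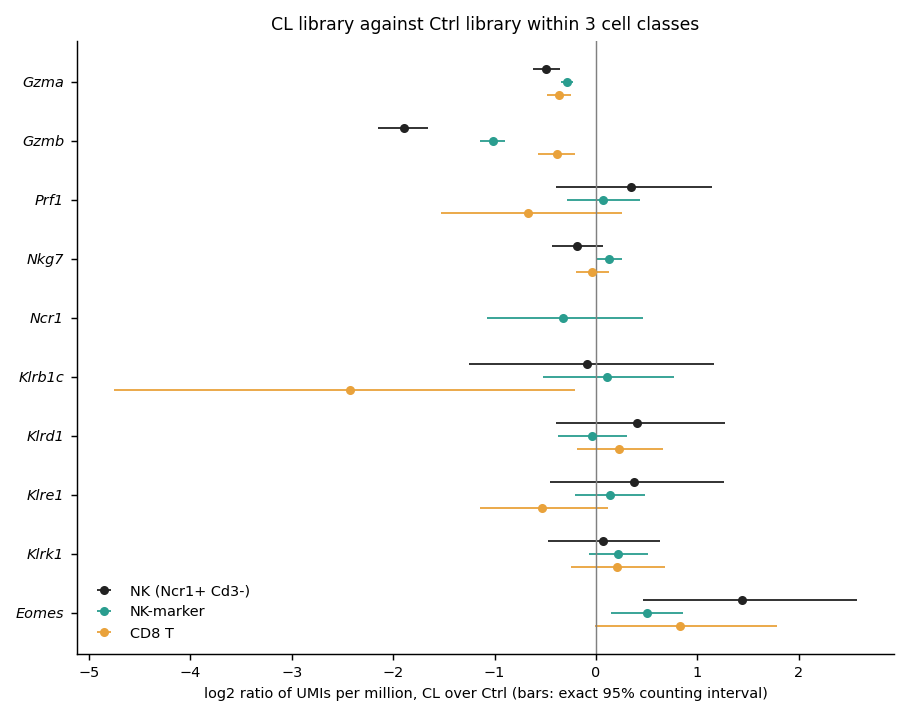
Log2 ratio of CPM in the CL library over the Ctrl library (horizontal axis) for each member in NK, NK-marker and CD8 T cells; bars are exact 95% counting intervals, and genes with fewer than 5 UMIs in all, and Ncr1 outside NK-marker cells, are not drawn. Gzmb lies left of 0 in all 3 classes and Eomes right of 0 in NK and NK-marker cells, while the intervals of Prf1, Klrd1, Klre1 and Klrk1 include 0.

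Cells with an Eomes UMI and cells without one differed in the levels of some granule and receptor genes. The split was made after the values of Eomes were seen, and it used Eomes alone. In Ctrl, 37 NK-marker cells had an Eomes UMI and 61 had none, at median depths of 4423 and 4435 UMIs, and in CL the numbers were 116 and 97 cells at 4477 and 4416 UMIs. Of the cells with Eomes, 36 of 37 in Ctrl and 114 of 116 in CL also had a Gzma UMI. Of those without, 68.9% and 68.0% had one. The Gzma level did not follow this share, with log2 ratios of cells with over cells without Eomes of -0.43 (-0.53 to -0.32) in Ctrl and 0.02 (-0.05 to 0.09) in CL. The ratios were 0.60 (-0.02 to 1.22) and 0.59 (0.18 to 1.00) for Prf1, and 0.11 (-0.12 to 0.33) and 0.35 (0.21 to 0.49) for Nkg7. Klrd1 was higher in cells with Eomes in both libraries, at 311 against 180 CPM in Ctrl and at 277 against 164 CPM in CL, log2 ratios of 0.78 (0.21 to 1.36) and 0.75 (0.36 to 1.16). Klre1 followed the same direction, with log2 ratios of 0.83 (0.24 to 1.42) and 0.50 (0.13 to 0.89). For Klrk1 the ratios were -0.11 (-0.64 to 0.40) and 0.10 (-0.21 to 0.41). For Klrb1c they were 0.76 (-0.37 to 1.91) and 0.14 (-0.56 to 0.85), and the intervals of Ncr1 also included 0. Gzmb went the other way, at 1665 against 2479 CPM in Ctrl and 875 against 1295 CPM in CL.

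Gzmc, a granzyme gene outside the members, had the widest contrast of the genes compared in this split. Gzmc was at 64.2 CPM in Ctrl cells with Eomes and at 1804 CPM in those without, and at 87.7 and 850 CPM in CL, log2 ratios of -4.81 (-5.77 to -3.99) and -3.28 (-3.72 to -2.86). Most cells of either set had no Gzmc UMI. It was in 5 of 37 cells with Eomes and 25 of 61 without in Ctrl, and in 6 of 116 and 25 of 97 in CL. A list of 8 genes linked to type 1 innate lymphoid cells, tissue-resident relatives of NK cells (Itga1, Cxcr6, Cd200r1, Inpp4b, Il7r, Gpr183, Ltb and Tnfsf10), was likewise lower in cells with Eomes, at 150 against 595 CPM in Ctrl and 75.9 against 360 CPM in CL. A list of 9 genes linked to circulating NK cells was higher in them, at 766 against 397 CPM in Ctrl and 1073 against 439 CPM in CL, although 5 of its genes (Itga2, S1pr5, Klra4, Klra8 and Cma1) belong to the NK-marker gate.

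The difference in Gzmb between the libraries was present in both sets of cells. The log2 ratio of CL over Ctrl was -0.93 (-1.13 to -0.72) with Eomes and -0.94 (-1.10 to -0.78) without. Gzma was at the same level in the libraries among cells with Eomes, 6323 CPM in Ctrl and 6302 CPM in CL, and was lower in CL among those without, 8490 against 6229 CPM.

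**Figure D4:**
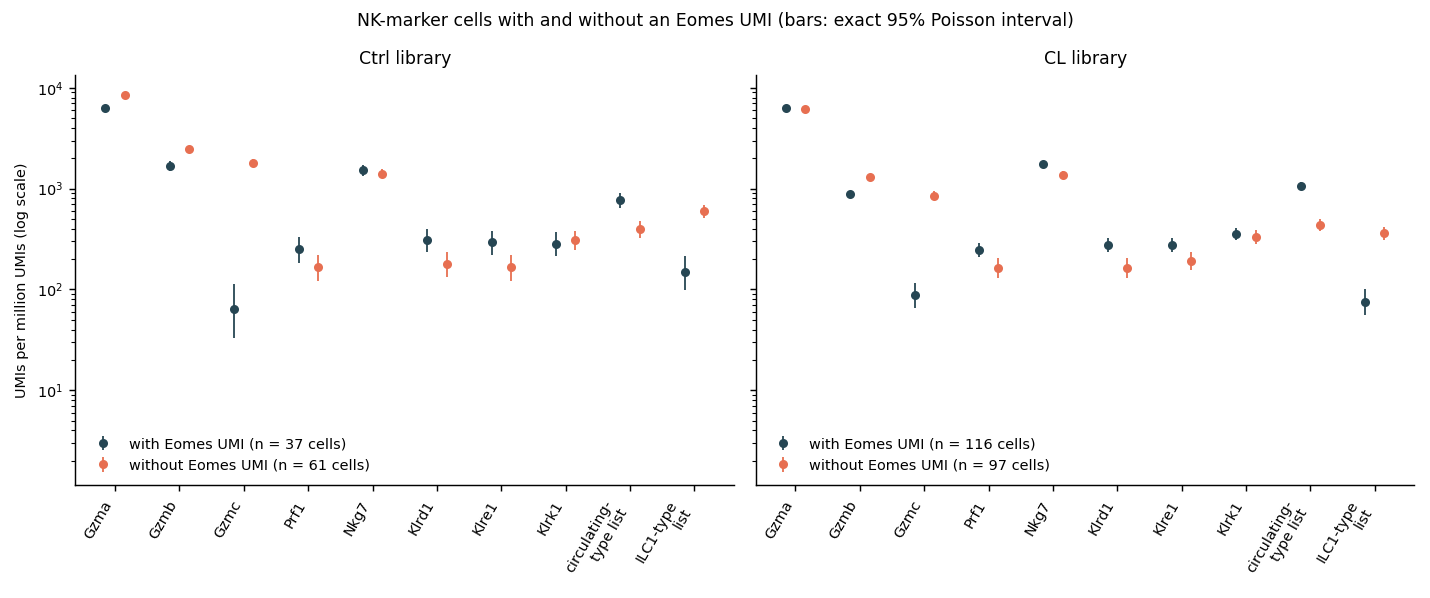
Level of granule genes, receptor genes and both lists (UMIs per 1000000 UMIs, log axis) in NK-marker cells with and without an Eomes UMI, for each library; bars are exact 95% Poisson intervals. Gzmc and the list linked to type 1 innate lymphoid cells are lower in cells with Eomes in both libraries, and Klrd1 and Klre1 are higher.

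CD8 T cells numbered 55 in Ctrl and 222 in CL and carried the same granule genes at lower levels. Gzma was at 2515 and 1954 CPM, Gzmb at 1042 and 796 CPM, Prf1 at 52.3 and 32.8 CPM and Nkg7 at 1218 and 1189 CPM. NK cells held more Gzma, with log2 ratios over CD8 T cells of 1.63 (1.48 to 1.77) in Ctrl and 1.499 (1.40 to 1.60) in CL, and more Prf1, with 2.03 (1.03 to 3.07) and 3.06 (2.46 to 3.66). For Gzmb the ratio was 1.87 (1.65 to 2.09) in Ctrl and 0.36 (0.14 to 0.57) in CL. With NK-marker cells it was 1.05 (0.86 to 1.23) and 0.41 (0.29 to 0.54). For Nkg7 the ratios of NK over CD8 T cells were 0.71 (0.46 to 0.97) in Ctrl and 0.56 in CL. With NK-marker cells the Nkg7 ratio was 0.26 (0.07 to 0.44) in Ctrl. Thinned to 2820 UMIs, 83.1% of NK-marker cells and 83.7% of CD8 T cells in Ctrl had an Nkg7 UMI, and 89.7% and 84.4% in CL.

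Klrd1 was at like levels in both lineages. It stood at 186 and 218 CPM in the CD8 T cells of Ctrl and CL, and the log2 ratio of NK over CD8 T cells was -0.02 (-0.87 to 0.76) in Ctrl and 0.16 (-0.30 to 0.60) in CL. With the larger NK-marker class it was 0.32 (-0.15 to 0.81) and 0.06 (-0.20 to 0.31). Thinned to 2820 UMIs, 49.4% of NK-marker cells and 42.9% of CD8 T cells in Ctrl had a Klrd1 UMI, and 39.1% and 39.5% in CL. Thinned to 3759 UMIs, the shares were 43.3% and 56.1% in Ctrl and 53.3% and 47.0% in CL. The order of the classes differed between these settings, which also kept different cells, and the intervals of the classes overlapped in each. In Ctrl the intervals were 37.8 to 61.0 and 28.8 to 57.8 at 2820 UMIs, and 30.6 to 56.8 and 39.7 to 71.5 at 3759 UMIs. The other receptors were lower in CD8 T cells, with Klrk1 at 157 and 181 CPM, Klre1 at 98.0 and 67.8 CPM and Klrb1c at 16.3 and 3.05 CPM, and Eomes was at 42.5 and 75.4 CPM. The log2 ratios of NK-marker over CD8 T cells in CL were 0.94 (0.70 to 1.18) for Klrk1, 1.82 (1.46 to 2.18) for Klre1, 4.51 (3.10 to 6.43) for Klrb1c and 1.83 (1.496 to 2.18) for Eomes. In Ctrl the ratios were 0.92 (0.44 to 1.43) for Klrk1 and 1.15 (0.55 to 1.79) for Klre1. For Klrb1c and Eomes they were 1.99 (0.61 to 3.71) and 2.16 (1.31 to 3.12) there. Ncr1 had 0 UMIs in the CD8 T cells of Ctrl, which allows up to 3 counts or 9.80 CPM, and 1 UMI in those of CL.

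Of the 9 members other than Ncr1, the median NK cell had UMIs of 6 and the median CD8 T cell of 3, in both libraries. The median NK-marker cell had UMIs of 5 in Ctrl and 6 in CL. These counts were not thinned. Median depths in Ctrl and CL were 6257 and 5307 UMIs in NK cells, 4429 and 4463 in NK-marker cells and 4968 and 4987 in CD8 T cells.

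**Figure D5:**
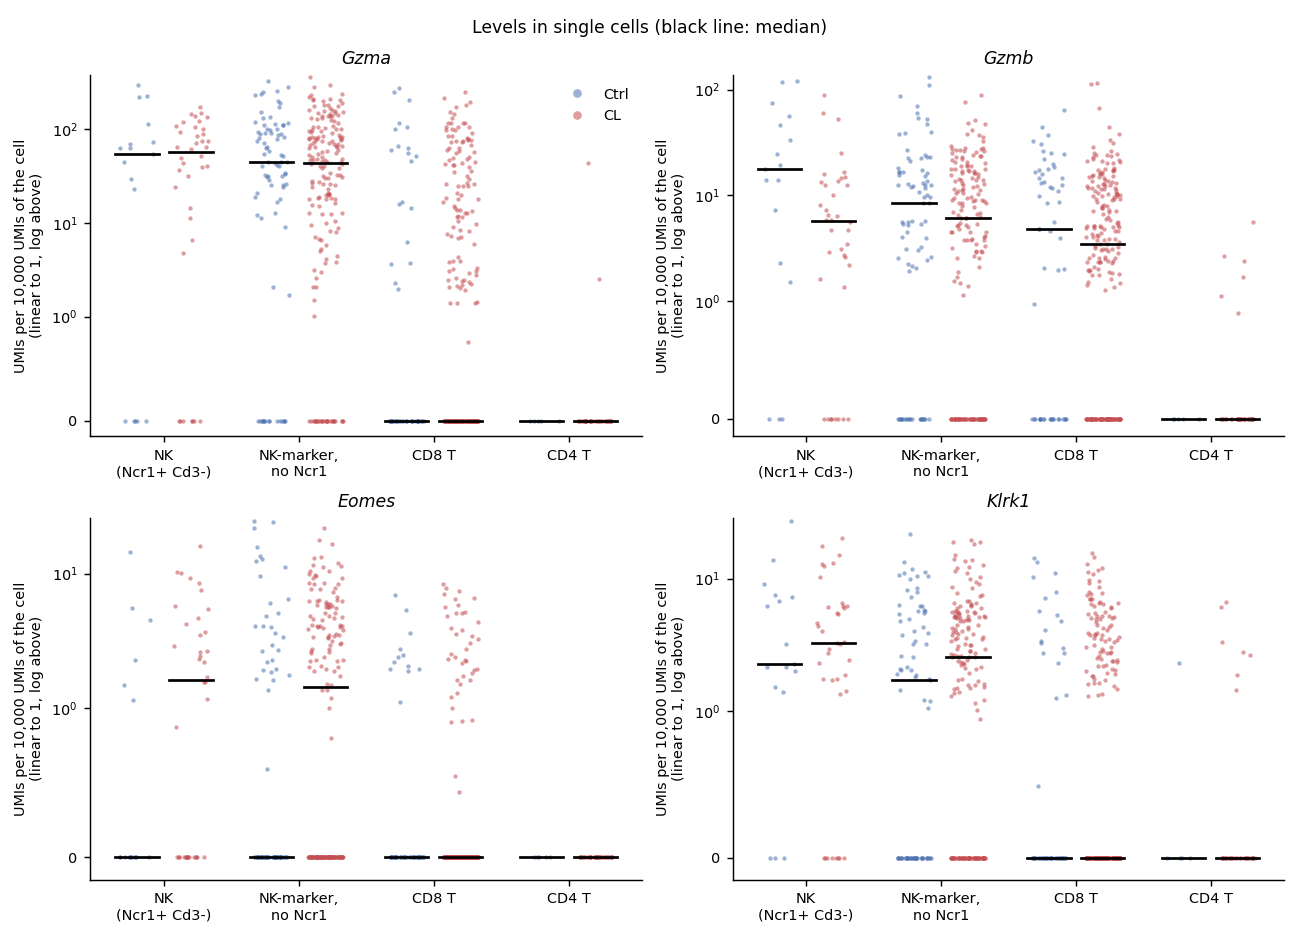
UMIs of Gzma, Gzmb, Eomes and Klrk1 per 10000 UMIs of each cell (vertical axis, linear to 1 and logarithmic above) in NK cells, NK-marker cells without an Ncr1 UMI, CD8 T cells and CD4 T cells of both libraries; each point is a cell and black lines are medians. The clouds of the Ctrl and CL libraries overlap in every class, and most CD4 T cells lie at 0.

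Within CD8 T cells, none of the 7 members measured was 2-fold apart, where 3.3% of all genes were. Gzma had a log2 ratio of CL over Ctrl of -0.36 (-0.48 to -0.25), which was -0.11 (-0.24 to 0.02) without the highest cell of each library, and Gzmb had -0.39 (-0.57 to -0.20). Eomes had 0.83 (-0.01 to 1.79), but the mean over cells of each cell's own CPM gave -0.03. Klrb1c, below the minimum of counts, had 5 UMIs in Ctrl and 4 in CL, a log2 ratio of -2.42 (-4.76 to -0.21). The T cells with neither or both of the CD4 and CD8 markers, 50 in Ctrl and 222 in CL, differed more. Their Gzma was at 3154 and 969 CPM, Gzmb at 1458 and 629 CPM, and Klre1 at 174 and 75.8 CPM, and 3 of the 6 members measured were at least 2-fold lower in CL, where 2.18% of all genes were. In Ctrl, 1 of these cells held 33.6% of the Gzma UMIs, and 11 of the 50 had any. The share of these cells with a Gzma UMI was not lower in CL, at 22.0% in Ctrl and 29.3% in CL, or 21.3% (10.7 to 35.7) and 24.9% (18.9 to 31.6) thinned to 2820 UMIs. Markers of other cell types also differed there, and their part in these values was not tested. The myeloid list was at 10.9 CPM in Ctrl (2 of 13 genes) and 430 CPM in CL (9 of 13) in these T cells, and at 6.53 and 213 CPM in CD8 T cells (1 and 10 of 13). The stromal list was at 94.0 and 251 CPM in these T cells and at 55.5 and 104 CPM in CD8 T cells, and the 12 NK genes were at 3024 and 2177 CPM in these T cells.

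CD4 T cells held little of the programme. The 38 cells of CL had Nkg7 at 279 CPM, Gzma at 156 CPM, Klrd1 at 68.6 CPM, Klrk1 at 64.1 CPM and Gzmb at 54.9 CPM. Of the 34 Gzma UMIs there, 33 came from 1 cell. Ncr1, Klrb1c, Klre1 and Eomes had 0 UMIs, which allows up to 3 counts or 13.7 CPM each. The Ctrl library had 5 CD4 T cells, too few to compare.

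Outside lymphocytes, Klrk1 and Klrd1 were also counted in myeloid cells. Klrk1 was at 14.0 CPM in Ctrl (2 of 54 cells) and 19.8 CPM in CL (25 of 219 cells), against 2.09 and 4.77 CPM in empty droplets. Klrd1 was at 83.9 CPM in the 54 myeloid cells of Ctrl and 30.9 CPM in the 219 of CL, from 5 and 12 cells, with 25 of 36 and 18 of 61 UMIs in a single cell. None of the cells with Klrd1 had a C1qa UMI, which 37 of the other 49 cells in Ctrl and 66 of the other 207 in CL had. Of the 5 and 12 cells, 4 and 7 had Cd209a, and 4 and 6 had Ccr7, genes of dendritic cells. In the other myeloid cells Cd209a was in 3 of 49 and 4 of 207, and Ccr7 in 3 of 49 and 16 of 207. Lyz2, a gene of many myeloid cells, was in 3 of the 5 and 8 of the 12 cells with Klrd1, and in 45 of 49 and 204 of 207 of the others. This was looked at after the values were seen. Gzma in the myeloid cells of Ctrl came to 50 UMIs, 49 of them in 1 cell.

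The background was read in droplets without a cell. In droplets of 100 to 300 UMIs, taken as empty, Gzma was at 67.4 CPM in Ctrl and 88.0 CPM in CL, Gzmb at 19.8 and 26.6 CPM, Nkg7 at 13.2 and 35.4 CPM, and each of the other members at 7.75 CPM or less. Epithelial cells were below the empty droplets in all 10 genes, with Gzma at 7.18 and 16.4 CPM. Most of their member UMIs lay in few barcodes. In Ctrl 20 of 5705 epithelial barcodes (0.351%) had at least 5 UMIs of the members and held 69.4% of them, and in CL 86 of 8066 (1.07%) held 81.4%. The median doublet score of these barcodes was 0.405 and 0.315, against 0.0501 and 0.0462 in the rest, and without them the members summed to 4.01 and 6.10 CPM.

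Over all kept cells each member had more CPM in CL, for example Gzma 95.1 against 61.6 CPM (log2 ratio 0.63, 0.58 to 0.67) and Eomes 4.22 against 1.57 CPM (1.43, 1.17 to 1.70); the interval of Ncr1 alone included 0. Over immune cells each was lower, with Gzma at 1776 against 3455 CPM (-0.96, -1.01 to -0.91), while the intervals of Klrb1c and Eomes included 0. The 2 directions stand beside an immune share of kept cells of 10.1% in CL against 4.21% in Ctrl, and an NK-marker share of immune cells of 22.6% against 37.0%. In sums over mixed cells, fewer cells of a type and less RNA per cell cannot be told apart.

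The other genes of the killing pathway were read from lists in NK-marker cells. Of 9 other granule and killing genes measured, 1 was at least 2-fold higher in CL and 3 were lower, beside the 2.55% of all genes past that size. Srgn, the granule proteoglycan serglycin, was at 2860 CPM in Ctrl and 2501 CPM in CL, Ctsw, a protease gene of killer cells, at 597 and 510 CPM, and Fasl, the death ligand, at 179 and 132 CPM. Gzmc was at 1104 and 424 CPM, from 30 of 98 and 31 of 213 cells. Without the highest cell it was 874 and 350 CPM. The other genes past 2-fold, Gzmd and Gzme lower and Gzmf higher in CL, each had most of their UMIs in 1 cell of the higher library, and they are named after their values were seen.

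Among 12 other receptor genes measured, 1 was past 2-fold, where 2.55% of all 3181 genes were in either direction. It was Klra8, higher in CL (77.6 against 175 CPM, log2 ratio 1.17, 0.65 to 1.73). Klra8, Klra4 and Klra9 are genes of the NK-marker gate, so their UMIs took part in the choice of these cells. Genes of the Klra family are near-identical copies, and how reads were shared among them is uncertain. Klra4, Klra9, Klrb1b and Klrc1 were at 190, 179, 175 and 185 CPM in Ctrl and at 254, 199, 197 and 171 CPM in CL. None of 5 adaptor genes was past 2-fold. Tyrobp and Hcst, the adaptors DAP12 and DAP10 that signal for Klrk1 and related receptors, were at 1345 and 310 CPM in Ctrl and at 1336 and 293 CPM in CL, and Fcer1g was at 2996 and 2436 CPM. In the CD8 T cells of CL, Tyrobp was at 83.0 CPM and Fcer1g at 190 CPM, while Hcst was at 497 CPM.

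None of 5 other factor genes was past 2-fold, with Id2 at 966 and 925 CPM, Runx3 at 914 and 840 CPM, Nfil3 at 125 and 105 CPM and Tbx21, which encodes T-bet, at 224 and 174 CPM (log2 ratio -0.36, with a lower bound of -0.72 and an upper bound just under 0). Nor was any of 5 cytokine genes, among which Ccl5 was higher in CL (9717 against 13485 CPM, 0.47, 0.42 to 0.52), Xcl1 lower (1974 against 1438 CPM), and Ifng and Ccl4 at 170 and 504 CPM in Ctrl and 196 and 449 CPM in CL. Of 6 cytokine receptor genes none was past 2-fold, with Il2rb at 1696 and 1431 CPM, Il2rg at 343 and 262 CPM, Il18rap at 142 and 215 CPM and Il21r at 293 and 160 CPM (-0.87, -1.21 to -0.54). Of all genes measured in these cells, 2.55% were past 2-fold. Xcl1, Il2rb and Il18rap are genes of the NK-marker gate, so their UMIs took part in the choice of these cells.

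The lists of resident and circulating type were apart between the libraries. The list linked to type 1 innate lymphoid cells had a summed level of 416 and 201 CPM in the NK-marker cells of Ctrl and CL. The log2 ratio was -1.05 (-1.33 to -0.76). Of its 3 genes measured, 2 were at least 2-fold lower, where 1.92% of all 3181 genes were. They were Itga1 (94.8 and 28.2 CPM) and Gpr183 (73.3 and 30.1 CPM), both named after their values were seen. Cxcr6, the other one, was at 88.4 and 48.9 CPM. Rgs1 and Cd69, from a list of tissue-resident T cell genes, were at 3313 and 347 CPM in Ctrl and at 1885 and 208 CPM in CL. Of the 5 genes of that list measured, 2 were at least 2-fold lower, while Rgs1 and Cd69 were not. The list linked to circulating NK cells summed to 545 and 792 CPM, 0.54 (0.33 to 0.75), and its genes outside the NK-marker gate gave 0.45 (0.08 to 0.82). Of its 7 genes measured, 2 were at least 2-fold higher, beside 2.55% of all genes past 2-fold in either direction. In CD8 T cells the lists linked to type 1 innate lymphoid cells and to circulating NK cells gave log2 ratios of -0.12 (-0.35 to 0.12) and 0.24 (-0.27 to 0.78). The list of tissue-resident T cell genes gave -0.25 (-0.37 to -0.14) there, beside -0.83 (-0.92 to -0.74) in NK-marker cells. In NK-marker cells most of that list's UMIs were of Rgs1, with 1537 of 1811 in Ctrl and 2003 of 2330 in CL. Itga1 and Cxcr6 belong both to that list and to the one linked to type 1 innate lymphoid cells. Whether the make-up of the NK-marker cells or the level within them differed was not tested.

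On the target side, ligands and inhibitors were read over all classes. H2-T23, which encodes the Qa-1 molecule bound by CD94 with NKG2A, was at 207 and 312 CPM in the epithelial cells of Ctrl and CL and at 124 and 177 CPM in empty droplets. Ulbp1, which encodes a ligand of NKG2D, was at 0.65 and 0.33 CPM in epithelial cells, and H60b, another one, had 1 UMI and 0 UMIs there. Clec2d, a ligand of lectin-like receptors, was at 5.23 and 5.21 CPM. Serpinb9, the inhibitor of granzyme B, was at 723 and 478 CPM in NK cells themselves, against 8.36 and 9.67 CPM in epithelial cells. Serpinb9b was at 88.4 and 163 CPM in NK-marker cells and had 0 UMIs in CD8 T cells, Serpinb6b was at 362 and 485 CPM in NK-marker cells, and Serpinb6a was at 379 and 418 CPM in stromal cells.

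The 8 genes outside the members whose level followed the mean of the members most closely over 18 points, a class in a library each, were Xcl1, Cst7, Txk, Ctsw, Serpinb6b, Klra7, Samd3 and Cd7, with Pearson r from 0.95 to 0.98 on log2(CPM + 10). Xcl1, Txk and Klra7 are also genes of the NK-marker gate. Points of a library share its depth, and r is given as a description. Among the members, the same measure against the mean of the other members ran from 0.90 for Klrb1c to 0.98 for Gzma. Ncr1 (0.56) cannot be compared, because the gate itself sets it to 0 in the immune cells outside the NK and T cell classes.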

How the data were processed

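Single cells of mammary glands were profiled with a 3′ droplet kit in 1 Ctrl and 1 CL library. The authors' deposited values are raw UMI counts per gene and barcode, empty droplets included, made with Cell Ranger (version 4 per the file headers, 2.1.1 per the processing notes) on mm10, with no normalization. Every matrix was tied to its sample by the deposit, and 0 columns were unmapped. The libraries held 118743318 and 155765480 UMIs. The deposited barcode lists do not index the matrix, so as many barcodes with the most UMIs as each list has lines were taken (7217 and 10555), and those with at least 500 genes and at most 15% mitochondrial UMIs were kept. Immune cells had at least 3 UMIs of Ptprc, Coro1a, Laptm5, Cd52 and Rac2 together, and more of these than of epithelial genes. T cells had a Cd3 UMI and were split by Cd4 and Cd8. Myeloid cells had at least 3 UMIs of 13 markers.

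Levels are a gene's UMIs in a class as a share of the total there, scaled to 1000000. Intervals are exact at 95% (Poisson for levels, Clopper-Pearson for shares, conditional binomial for ratios). They cover counting error only, and cells of a library are not replicates, so no test was made. A count of 0 allows up to 3 counts. Genes entered the counts of genes at least 2-fold apart with at least 50 CPM and 20 UMIs on the higher side. Doublets were kept, since removing those with the highest Scrublet scores was an alternative. Python 3.11, numpy 2.4.6, scipy 1.17.1, pandas 2.3.3, scanpy 1.11.5 and, for TMM scaling as an alternative, edgeR 4.0.16 were used, and the code was tested on simulated data.

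Beside the members, the genes named were up to 4 of each list with the highest level in NK cells among those with at least 20 UMIs there (over all classes for ligands and inhibitors), and the 8 genes most like the members, outside the genes of the class gates but not of the NK-marker gate. The members and lists were chosen with earlier results of these data known. The use of NK-marker cells throughout, the split by Eomes, the accounts of single cells, of myeloid cells with Klrd1 and of epithelial barcodes, and 4 of the alternatives were chosen after seeing the data. The other 18 alternatives concerned the filters on cells, doublets, gates, scaling, thinning depth and low counts. Promoter windows are RefSeq sequences and gene positions are from GENCODE M21. The value of 1 gene of the lists is not reported here.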

Additional observations from a re-analysis of the deposited data

How the results depend on the processing

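No paired analysis was possible because each group has 1 library. The log2 ratio of CL over Ctrl for the granule genes in NK cells, -0.69, was negative under every alternative run. It was -1.34 with at least 2 Ncr1 UMIs, -0.32 with the NK-marker gate, -0.26 with no immune gate, -0.55 with TMM scaling, -0.48 as a mean of cell CPM, and, in alternatives chosen after seeing the data, -0.40 without the top cell and -0.25 without the top 2 cells of each library. The receptor genes in NK cells, at 0.19, were at -0.41 with at least 2 Ncr1 UMIs and 0.86 with no immune gate. The granule genes in NK over CD8 T cells, 1.51 in Ctrl and 1.11 in CL, were at 2.42 and 1.37 with at least 2 Ncr1 UMIs, 1.24 and 1.20 with the NK-marker gate, 0.46 and 0.61 with no immune gate, 1.40 and 1.01 with TMM scaling, and, in Ctrl, 1.38 with at most 5% mitochondrial UMIs. Gzma in NK cells was at 0.00 (0.000159) without the top cell of each library, -1.18 with at least 2 Ncr1 UMIs, -0.28 with the NK-marker gate, -0.23 with no immune gate, -0.36 with TMM scaling and -0.29 as a mean of cell CPM. Of the single genes in NK cells, Gzmb (-1.90) was at -3.50 with at least 2 Ncr1 UMIs, -1.16 with no immune gate and -1.53 as a mean of cell CPM, Eomes (1.44) at 3.27 with at least 2 Ncr1 UMIs, Klre1 (0.37) at -0.54 with at least 2 Ncr1 UMIs and 1.27 with no immune gate, Klrk1 (0.07) at -0.90 with at least 2 Ncr1 UMIs, and Nkg7 (-0.18) at 0.49 with no immune gate. Without a CPM minimum, the share of all genes at least 2-fold apart between the libraries went from 2.55% to 6.34% in NK-marker cells and from 3.3% to 10.4% in CD8 T cells. The cause of these shifts was not tested. In all, 60 values of the main comparisons and 217 of single genes, shares and gene counts stayed within their counting intervals, or, for counts of genes, within 1.5 times. Beyond that went 18 of the main comparisons, all given above, and 23 of the others. Among these 23 were the other single-gene values above and the log2 ratio of the thinned Klrd1 share in NK-marker cells. The Klrd1 ratio was -0.33 at 2820 UMIs and 0.30 at 3759 UMIs. In 1 more value the sign turned, Gzma in NK cells without the top cell of each library, from -0.49 to 0.000159. The 17 NK cells of Ctrl limit every value that rests on them.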
